A study of Mus musculus with 6 samples.

Results

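Platelet-derived growth factors (PDGFs), their receptors and the pericyte markers Cspg4 and Rgs5 were followed in RNA-seq libraries of cultured mouse kidney cells. Genes were taken by the symbol in the deposited table, which gave 9 rows of 22274. Of these, 8 are the named genes Pdgfa, Pdgfb, Pdgfc, Pdgfd, Pdgfra, Pdgfrb, Cspg4 and Rgs5. The ninth row also carries the symbol Cspg4, but its identifier (ENSMUSG00000021763) and its description belong to chondroitin sulfate proteoglycan 4B, a separate gene named Cspg4b below.

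In 3 libraries the cells had received siRNA against Prune2 (genotype given as a knockdown), and in 3 they had received a scrambled control siRNA (genotype given as WT). Both groups are labelled primary renal fibroblasts from kidney, and both had TGF-β at 5 ng/ml for 48 h to activate fibroblasts, so no value here measures the response to TGF-β. The sources used here do not give strain, age, the isolation of the cells or whether replicates were separate cultures. A p-value here therefore rests on library-to-library spread that may be purely technical.

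PDGF chains are secreted as dimers. PDGF-A and PDGF-B are cleaved inside the cell by furin-like convertases, whereas PDGF-C and PDGF-D leave the cell in a latent form that extracellular proteases activate. PDGF receptor α binds the A, B and C chains and receptor β the B and D chains. In the kidney, interstitial fibroblasts carry receptors α and β, while pericytes, mesangial cells and vascular smooth muscle are known for receptor β, and PDGF-B from endothelium recruits receptor β-positive pericytes to vessels.

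Library totals ran from 20075265 to 23234797 counts. Prune2 itself was lower in all 3 Prune2 siRNA libraries, at 3.78, 3.19 and 4.44 CPM (counts relative to a TMM-scaled library size), against 6.49, 7.85 and 6.52 CPM with control siRNA (log2 fold change -0.87, SE 0.15, adjusted p = 0.000214). The authors' deposited table gives a smaller log2 fold change of -0.48 for Prune2, from mean FPKM of 0.85 with Prune2 siRNA and 1.18 with control siRNA. Lengths implied by its count and FPKM were 4492 bases with Prune2 siRNA and 5874 bases with control siRNA. Throughout, the adjusted p is that of the edgeR quasi-likelihood test after Benjamini-Hochberg correction across 13248 tested genes, and a gene with an adjusted p under 0.05 is called. A positive log2 fold change means higher with Prune2 siRNA. All 9 rows passed the filter on low counts.

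Levels of the members spanned a wide range, with ligands high and receptors low. On the deposited FPKM scale, which divides by transcript length and so allows genes to be set beside each other, the order was Pdgfb, Pdgfa, Pdgfc, Pdgfd, Cspg4b, Cspg4, Pdgfrb, Pdgfra and Rgs5 in both groups. No library of a gene in that order overlapped in FPKM with any library of the next gene in the same group. Summed FPKM of the 4 ligand genes was 107 to 117 times that of the receptor genes together in Prune2 siRNA libraries, and 107 to 143 times in control libraries.

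**Figure D1:**
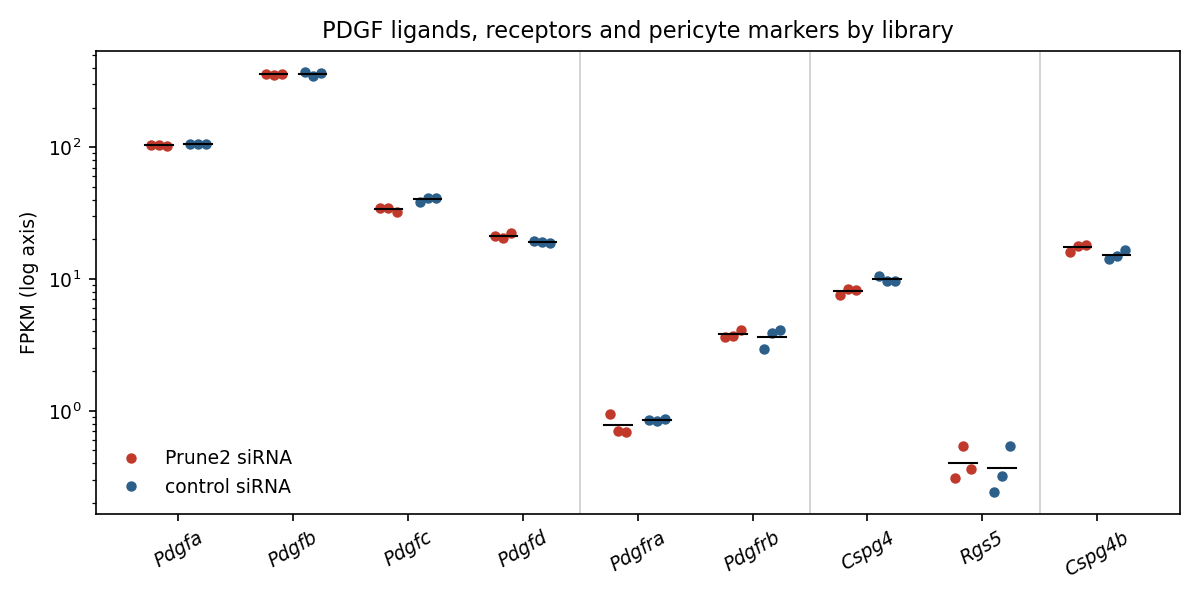
FPKM of each member (log axis) in the 3 Prune2 siRNA libraries (red) and the 3 control siRNA libraries (blue), with a bar at each group's mean. Pdgfb lies near 360 FPKM and Pdgfra and Rgs5 lie under 1 FPKM in all 6 libraries, while Pdgfc and Cspg4 are lower with Prune2 siRNA.

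Of the 9 rows, Pdgfc and Cspg4 fell with Prune2 siRNA and 0 rose. Among all tested genes 10.3% were called, 5.83% as lower and 4.46% as higher, so 2 calls among 9 rows is a small count from which no departure from the rest of the table was read. The libraries of the groups did not overlap in CPM for Pdgfa, Pdgfc, Pdgfd and Cspg4, that is for 4 of 9 rows, beside 24.3% of all tested genes. The median log2 fold change of the 8 named genes was -0.03, against 0.0042 over all tested genes. Leukocyte and endothelial markers were also lower with Prune2 siRNA (values below), and in bulk libraries fewer cells of a type and less RNA per cell cannot be told apart.

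Among the ligands, Pdgfc was lower in every Prune2 siRNA library than in any control library. Pdgfc (chromosome 3, 81036416 to 81214040, plus strand of GRCm38) encodes PDGF-C, a latent ligand of receptor α. It stood at 109.9, 112 and 103 CPM in Prune2 siRNA replicates 1, 2 and 3, against 124, 131 and 134 CPM in control replicates 1, 2 and 3. The means were 108 ± 4.60 CPM with Prune2 siRNA and 129.9 ± 5.04 CPM with control siRNA (SD, n = 3 each). Pdgfc fell by 16.7% (log2 fold change -0.26, SE 0.04, 95% interval -0.35 to -0.18, adjusted p = 7.65e-05). The authors' deposited table, whose log2 fold changes are ratios of mean FPKM, gives -0.25 for Pdgfc, with an adjusted p of 7.19e-06.

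Pdgfb, the PDGF-B chain that binds receptors α and β, was the most abundant member. Its gene lies on chromosome 15, at 79995874 to 80014977, minus strand. It had 359.8, 355 and 359 FPKM in Prune2 siRNA libraries, against 373, 348 and 364 FPKM in control libraries. By mean FPKM it ranked 112 of 16449 genes above 0 with Prune2 siRNA and 108 of 16489 with control siRNA. The groups overlapped, and Pdgfb was not called (log2 fold change -0.02, 95% interval -0.09 to 0.05, adjusted p = 0.829). Pdgfb made up 69.1% to 69.6% of the summed ligand FPKM in Prune2 siRNA libraries and 67.7% to 69.4% in control libraries.

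Pdgfa, the PDGF-A chain that binds receptor α, followed Pdgfb (chromosome 5, 138976014 to 138997370, minus strand). It had 103, 103 and 102 FPKM in Prune2 siRNA libraries, against 107, 106 and 107 FPKM in control libraries. On the CPM scale the means were 177 ± 1.72 with Prune2 siRNA and 185 ± 1.25 with control siRNA (SD, n = 3 each). Although the groups did not overlap, the difference was not called (log2 fold change -0.07, SE 0.04, 95% interval -0.14 to 0.0039, adjusted p = 0.284).

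Pdgfd, which encodes the latent ligand PDGF-D of receptor β, was the ligand with the lowest FPKM (chromosome 9, 6168584 to 6378850, plus strand). It had 21.1, 20.6 and 22.3 FPKM in Prune2 siRNA libraries, against 19.6, 19.2 and 18.9 FPKM in control libraries. All 3 Prune2 siRNA libraries were above all 3 control libraries. The test did not call it (log2 fold change 0.09, SE 0.05, 95% interval -0.0067 to 0.19, adjusted p = 0.293).

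Both receptor genes were low in all 6 libraries, and neither was called. Pdgfra, the receptor gene widely used to mark fibroblasts (chromosome 5, 75152292 to 75198215, plus strand), had 0.94, 0.70 and 0.69 FPKM in Prune2 siRNA libraries, against 0.85, 0.84 and 0.87 FPKM in control libraries. These levels rest on 114, 106 and 108 counts with Prune2 siRNA and 117, 107 and 92 counts with control siRNA. Of the genes above 0 FPKM, 29.4% with Prune2 siRNA and 29.6% with control siRNA were lower than Pdgfra. Its log2 fold change was -0.04 (SE 0.16, 95% interval -0.36 to 0.28, adjusted p = 0.933), so at this depth a change of the size seen for Pdgfc lies within the interval.

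Pdgfrb, the receptor gene of pericytes, mesangial cells and smooth muscle, had 3.66, 3.70 and 4.12 FPKM in Prune2 siRNA libraries, against 2.92, 3.89 and 4.09 FPKM in control libraries. The groups overlapped, with control replicate 1 the lowest of the 6 libraries. Its log2 fold change was 0.07 (SE 0.09, 95% interval -0.13 to 0.26, adjusted p = 0.782). Within each library Pdgfrb was above Pdgfra in FPKM, by 3.89 to 5.97 times with Prune2 siRNA and by 3.44 to 4.70 times with control siRNA.

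Cspg4 encodes NG2, a transmembrane proteoglycan of pericytes reported to bind PDGF-A, and it was the pericyte marker among the members that fell. The gene is at 56865033 to 56899870 of chromosome 9, plus strand. Cspg4 stood at 60.9, 68.5 and 66.5 CPM in Prune2 siRNA libraries, against 86.1, 79.3 and 78.4 CPM in control libraries. The highest Prune2 siRNA library was below the lowest control library, and the means were 65.3 ± 3.92 CPM with Prune2 siRNA and 81.3 ± 4.20 CPM with control siRNA (SD, n = 3 each). Cspg4 fell by 19.6% (log2 fold change -0.31, SE 0.05, 95% interval -0.42 to -0.21, adjusted p = 7.93e-05). The authors' deposited table gives a log2 fold change of -0.31 for Cspg4, with an adjusted p of 1.43e-05.

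Rgs5, a regulator of G-protein signalling that is enriched in pericytes and vascular smooth muscle, had few counts in all 6 libraries (chromosome 1, 169655501 to 169695813, plus strand). It had 27, 43 and 34 counts in Prune2 siRNA libraries, against 20, 26 and 51 counts in control libraries. The highest and the lowest count were both in control libraries. Its log2 fold change was 0.02 (95% interval -0.59 to 0.63, adjusted p = 0.983). In percent the interval runs from -33.5% to 54.9%, so a change within that range in either direction was not excluded.

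Cspg4b moved the other way from Cspg4, without a call. Cspg4b (chromosome 13, 113293159 to 113379711, plus strand) is named BC067074 in the GENCODE M21 annotation. It stood at 125, 138 and 144 CPM in Prune2 siRNA libraries, against 117, 119 and 131 CPM in control libraries, and the groups overlapped (log2 fold change 0.15, SE 0.05, adjusted p = 0.0568). Without Prune2 siRNA replicate 1 the adjusted p was 0.00543 and without control replicate 3 it was 0.00868, with 0.00543 to 0.352 over 15 alternatives. The annotated transcripts of Cspg4 and Cspg4b share 0 stretches of 50 bases, of 11876 in Cspg4 and 8586 in Cspg4b. Adding up the rows by symbol would join these genes.

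The promoters of Pdgfc and Cspg4 are shown because these members were called in the same direction. Each is the stretch from 250 bases before to 50 bases after a RefSeq start (GRCm38.p6, plus strand, 5′ to 3′), chr3:81036166-81036465 for Pdgfc and chr9:56864854-56865153 for Cspg4. Capitals mark the SMAD-binding element CAGAC and the GC box GGGCGG, searched on both strands (GTCTG and CCGCCC where the match is on the other strand). SMADs are the transcription factors that TGF-β receptors activate.
Pdgfc: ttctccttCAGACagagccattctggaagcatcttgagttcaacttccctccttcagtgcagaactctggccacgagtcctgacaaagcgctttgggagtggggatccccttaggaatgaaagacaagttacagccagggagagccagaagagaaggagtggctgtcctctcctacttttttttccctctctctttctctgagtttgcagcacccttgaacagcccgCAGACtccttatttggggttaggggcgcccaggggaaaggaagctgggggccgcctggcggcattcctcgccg
Cspg4: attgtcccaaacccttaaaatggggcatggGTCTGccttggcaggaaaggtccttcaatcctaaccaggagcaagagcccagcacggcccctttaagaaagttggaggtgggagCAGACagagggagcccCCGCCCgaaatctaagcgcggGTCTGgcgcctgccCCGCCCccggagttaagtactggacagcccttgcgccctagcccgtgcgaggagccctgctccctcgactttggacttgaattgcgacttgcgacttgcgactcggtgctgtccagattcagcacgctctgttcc
The Pdgfc window holds 2 matches to CAGAC and 0 to GGGCGG. The Cspg4 window holds 3 matches to CAGAC and 2 to GGGCGG, with no overlap between the motifs. Of 32851 windows of the same length in the RefSeq table, 49.6% hold CAGAC and 35.7% hold GGGCGG, so such matches are common. The not-called ligand gene Pdgfd also holds 2 CAGAC matches, Pdgfra 1 and Rgs5 1, while both Pdgfa windows and the Cspg4b window hold 0 CAGAC matches. For GGGCGG, the Pdgfa windows hold 1 and 2 matches and the Cspg4b window 1, while those of Pdgfd, Pdgfra and Rgs5 hold 0. Windows of Pdgfb and Pdgfrb were not used here. A match is a description of these letters and not a site of binding.

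Genes that process PDGFs or act beside their receptors held calls in both directions, mostly lower. Of 11 genes in this list 10 were tested, and 5 fell, 2 rose and 3 were not called, a share of 70.0% beside 10.3% of all tested genes. Their median log2 fold change was -0.16. This list and the other gene lists were chosen with earlier results of these data known. A share of calls in a list is therefore a description and not independent evidence. Plat, the tissue plasminogen activator that activates PDGF-C, stood at 81.1, 79.8 and 80.3 CPM in Prune2 siRNA libraries, against 105, 114 and 122 CPM in control libraries. The groups were far apart, and Plat fell by 29.3% (log2 fold change -0.50, SE 0.05, adjusted p = 2.54e-08).

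Plau, the urokinase that activates PDGF-D, rose by 15.7%, with 1472, 1334 and 1571 CPM in Prune2 siRNA libraries, against 1235, 1242 and 1305 CPM in control libraries (log2 fold change 0.21, SE 0.04, adjusted p = 0.0018). The Plau call was lost with DESeq2 (adjusted p = 0.0557) and with limma on log2(FPKM + 1) (0.0712) and log2(FPKM + 0.1) (0.0647), with 3.77e-08 to 0.0712 over 15 alternatives. The authors' deposited adjusted p for Plau is 0.0629. St14, the protease matriptase that also acts on PDGF-D, was not called, at 445 ± 12.2 CPM with Prune2 siRNA and 443 ± 12.5 CPM with control siRNA (SD, n = 3 each).

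Convertase genes of the furin type gave 1 call. Furin, at 375 ± 7.73 CPM with Prune2 siRNA and 400.4 ± 20.8 CPM with control siRNA (SD, n = 3 each), was not called (log2 fold change -0.09, adjusted p = 0.151), and it passed without control replicate 2 (0.0407; 0.0407 to 0.463 over 15 alternatives). Pcsk5 was not called either (log2 fold change -0.0097, adjusted p = 0.959). Pcsk6 rose (log2 fold change 0.28, SE 0.09, adjusted p = 0.0428), but its groups overlapped and the call was lost in 9 of 15 alternatives. These include leaving out Prune2 siRNA replicate 1 (0.204), Prune2 siRNA replicate 3 (0.247), control replicate 1 (0.0863) or control replicate 2 (0.229), with 0.00178 to 0.406 over the 15.

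Co-receptor genes fell together. Nrp1, which encodes neuropilin-1, a co-receptor reported for PDGF ligands, stood at 173, 169.5 and 175 CPM in Prune2 siRNA libraries, against 212, 209 and 221 CPM in control libraries. It fell by 19.3% (log2 fold change -0.31, SE 0.04, adjusted p = 8.78e-07). Its relative Nrp2 fell by 18.7% (log2 fold change -0.30, adjusted p = 2.9e-05), and Lrp1, a lipoprotein receptor that associates with receptor β, fell by 14.0% (log2 fold change -0.22, adjusted p = 0.00178). Lrp1 lost its call with limma on log2(FPKM + 1) (adjusted p = 0.381) and log2(FPKM + 0.1) (0.379), with 6.55e-07 to 0.381 over 15 alternatives. Sparc, a matricellular protein that binds PDGF-B, fell by 26.5% (log2 fold change -0.44, adjusted p = 1.88e-09). A2m, a protease inhibitor of plasma that binds PDGF, was below the filter, with 2 counts summed over Prune2 siRNA libraries and 0 over control libraries.

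**Figure D2:**
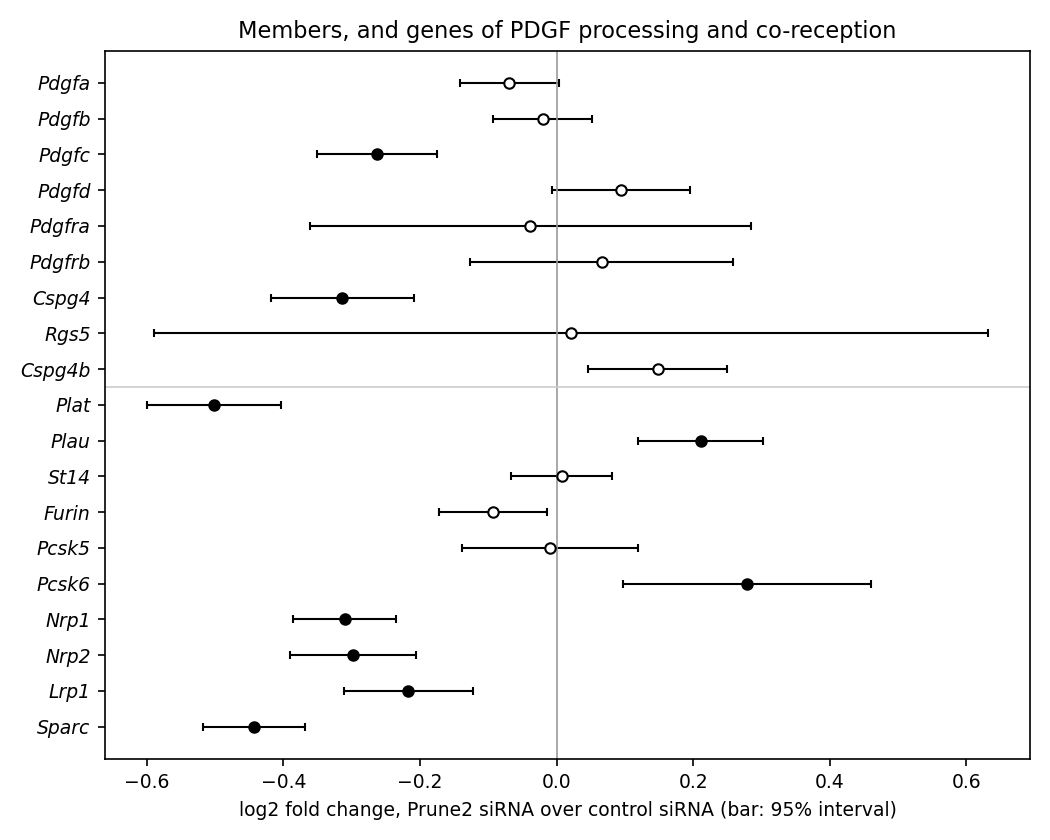
Log2 fold change, Prune2 siRNA over control siRNA, with its 95% interval for the 9 rows (above the grey line) and for the 10 tested genes of PDGF processing and co-reception (below it). Filled points passed an adjusted p of 0.05: Pdgfc and Cspg4 above the line, and Plat, Plau, Pcsk6, Nrp1, Nrp2, Lrp1 and Sparc below it.

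**Figure D3:**
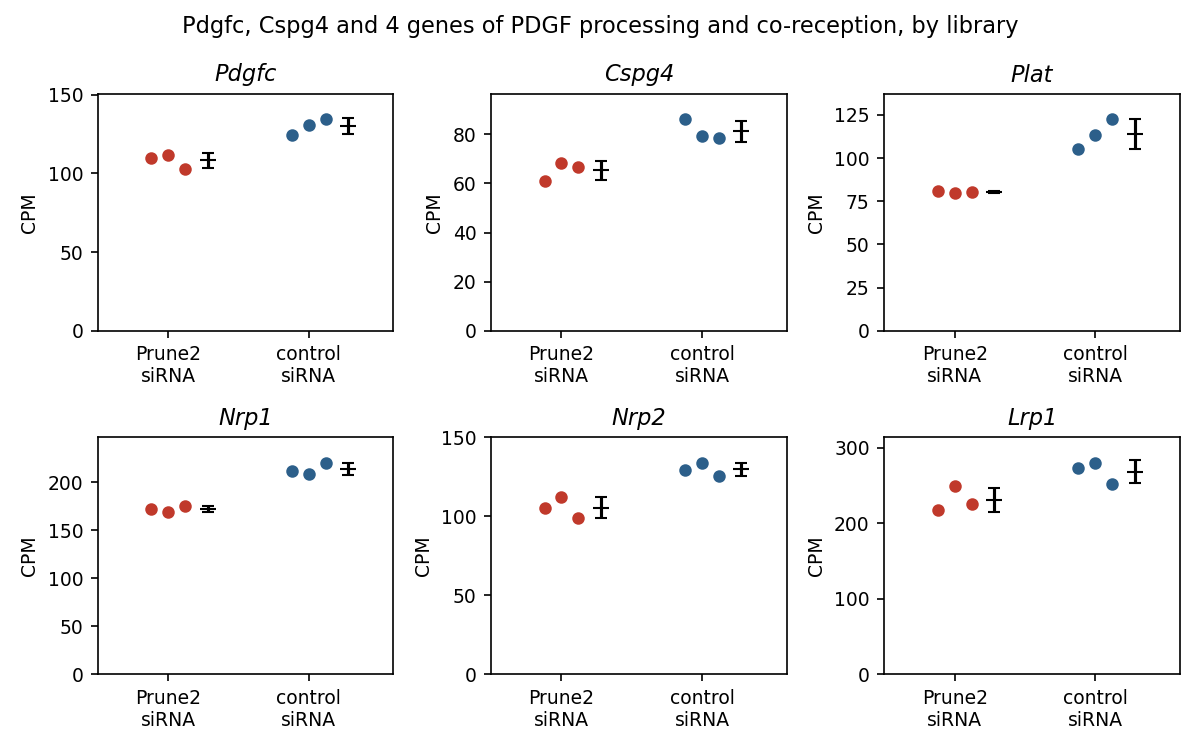
CPM of Pdgfc, Cspg4, Plat, Nrp1, Nrp2 and Lrp1 in each Prune2 siRNA library (red) and control siRNA library (blue), with mean and SD beside the points and axes that start at 0. In each panel every Prune2 siRNA library lies below every control library.

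Genes of the intracellular receptor pathway were mostly not called. Calls were made for 5 of 50, with 3 that rose and 2 that fell, a share of 10.0% beside 10.3% of all tested genes, and their median log2 fold change was -0.01. Without Prune2 siRNA replicate 2, 4 fell. Pik3cb, a catalytic subunit of phosphoinositide 3-kinase, fell by 23.3% (log2 fold change -0.38, adjusted p = 4.67e-08), and Dusp6, a phosphatase that restrains ERK, fell by 20.9% (log2 fold change -0.34, adjusted p = 0.000111). Ptprj, a phosphatase that acts on PDGF receptors, rose (log2 fold change 0.20, adjusted p = 0.00141). Stat3 rose by 0.13 on the log2 scale (adjusted p = 0.03), and lost its call without Prune2 siRNA replicate 1 (0.075), Prune2 siRNA replicate 3 (0.17), control replicate 1 (0.181) or control replicate 2 (0.102), with 0.0198 to 0.181 over 15 alternatives. The members with the highest FPKM were Akt1 (138 with Prune2 siRNA and 136 with control siRNA) and Grb2 (78.9 and 84.0), and neither was called.

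Genes that PDGF is known to induce moved in both directions. Among the 29 that passed the filter, 5 rose and 2 fell, a share of 24.1% beside 10.3% of all tested genes, with a median log2 fold change of -0.0047. The balance depended on single libraries: 3 rose and 4 fell without Prune2 siRNA replicate 1, 2 rose and 4 fell without control replicate 3, and 3 rose without control replicate 2. Ccnd1, a cyclin of the G1 phase, rose by 0.23 on the log2 scale (adjusted p = 6.94e-05) and Ier3, an immediate early gene, by 0.17 (adjusted p = 0.00366). Myc rose by 0.17 (adjusted p = 0.0115), a call lost without Prune2 siRNA replicate 3 (0.085), control replicate 2 (0.0829) or control replicate 3 (0.101), with 0.00106 to 0.128 over 15 alternatives. Has2, a hyaluronan synthase, fell by 22.3% (adjusted p = 7.93e-05) and Hbegf, a ligand of the EGF receptor, by 11.3% (adjusted p = 0.00148). Ccn2 and Ccn1, matricellular genes with the highest FPKM of the list, were not called (adjusted p = 0.0611 and 0.965), and Ccn2 passed in 6 of 15 alternatives, without Prune2 siRNA replicate 1 (0.0496) among them, with 0.0036 to 0.22 over the 15.

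The levels of the members were set beside markers of the cell types that such a culture can hold. Fibroblast-defining genes were uneven: Pdgfra, Dcn and Lum were under 1 FPKM on average, whereas the collagen genes Col1a1 and Col1a2 stood at 34.4 and 14.1 FPKM with Prune2 siRNA and at 39.7 and 16.0 FPKM with control siRNA. Lum, a proteoglycan of fibroblasts, had 3 counts summed over the Prune2 siRNA libraries and 3 over the control libraries, and Dcn, another, had 32 and 18. All 5 epithelial-defining genes, by contrast, were above 100 FPKM: Epcam stood at 248 FPKM with Prune2 siRNA and 244 FPKM with control siRNA, and the keratin gene Krt8 at 1131 and 1232 FPKM. The levels of Pdgfra, Dcn and Lum and of the epithelial genes go against the label of fibroblasts, while those of Col1a1, Col1a2 and other matrix genes such as Fbln2 do not.

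Of 6 pericyte-defining genes, 3 were under 1 FPKM on average and 0 were above 10. Kcnj8 and Abcc9, which encode the potassium channel of pericytes, had 12 and 7 counts summed over Prune2 siRNA libraries and 10 and 15 counts summed over control libraries. Notch3, also pericyte-defining, stood at 2.37 FPKM with Prune2 siRNA and 2.10 FPKM with control siRNA. It was not called (log2 fold change 0.20, adjusted p = 0.116). Higd1b and Vtn, pericyte markers in other tissues, had 0 counts in all 6 libraries. Of 27 pericyte genes matched, 17 were tested, and 6 fell, 0 rose and 11 were not called, 35.3% called beside 10.3% of all tested genes (median log2 fold change -0.17). Anpep, an aminopeptidase also found on myeloid and tubular cells, fell by 1.34 on the log2 scale (adjusted p = 5.38e-05), and the intermediate filament gene Des by 0.38 (adjusted p = 4.43e-05). Mcam, an adhesion molecule of pericytes and endothelium, fell by 0.17 (adjusted p = 0.00487). Its call was lost with limma on log2(FPKM + 1) (0.0671) and log2(FPKM + 0.1) (0.0694), with 0.000337 to 0.0694 over 15 alternatives. At 71.5 FPKM with Prune2 siRNA and 80.0 FPKM with control siRNA, Mcam was the most abundant gene of the list.

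**Figure D4:**
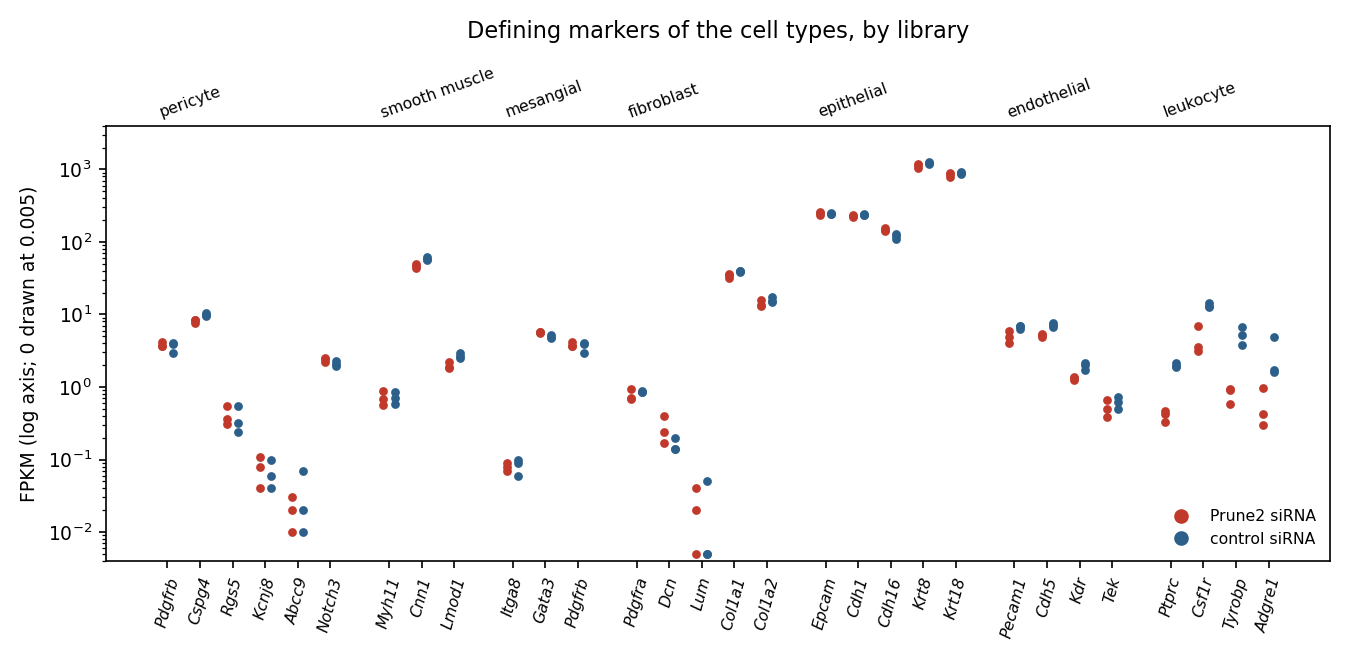
FPKM (log axis, with 0 drawn at 0.005) of the defining markers of 7 cell types in each Prune2 siRNA library (red) and control siRNA library (blue). The 5 epithelial genes lie above 100 FPKM in every library, while Pdgfra, Dcn, Lum, Rgs5, Kcnj8, Abcc9 and Itga8 lie under 1 FPKM.

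Of 13 tested smooth muscle genes, several of them contractile genes that pericytes share, 7 fell, 1 rose and 5 were not called, so that 61.5% were called beside 10.3% of all tested genes (median log2 fold change -0.23). Tagln, Cnn1 and Acta2, which encode actin-binding proteins and the α-smooth muscle actin, fell by 0.39, 0.40 and 0.29 on the log2 scale (adjusted p = 1.18e-07, 2.21e-06 and 7.31e-06). Mylk, the myosin light chain kinase, rose by 0.33 (adjusted p = 0.0136), a call lost without Prune2 siRNA replicate 3 (0.164), control replicate 1 (0.0563) or control replicate 2 (0.0623), with 0.00112 to 0.29 over 15 alternatives. The most abundant gene of the list, Cald1, fell by 0.13 (adjusted p = 0.0166), a call lost without Prune2 siRNA replicate 3 (0.14) or control replicate 2 (0.0955), with 0.00123 to 0.148 over 15 alternatives. Myh11, the smooth muscle myosin, was at 0.71 FPKM with Prune2 siRNA and 0.71 FPKM with control siRNA. The other smooth muscle-defining genes were higher, Cnn1 at 46.9 and 59.1 FPKM and Lmod1 at 1.97 and 2.71 FPKM, in the same order of groups. Lmod1 fell by 0.46 on the log2 scale (adjusted p = 0.00513).

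Of 7 tested mesangial genes 2 fell and 0 rose (28.6% called, beside 10.3% of all tested genes), namely Plvap (log2 fold change -0.80, adjusted p = 2.55e-05), which is also an endothelial gene, and Des. Itga8, an integrin chain used as a mesangial-defining gene, had 26 counts summed over Prune2 siRNA libraries and 30 over control libraries. Gata3, also mesangial-defining, stood higher, at 5.70 FPKM with Prune2 siRNA and 4.95 FPKM with control siRNA. It was not called (log2 fold change 0.20, adjusted p = 0.127). Pdgfrb, also used as mesangial-defining, is given above. Serpine2, a protease inhibitor, had the second highest level of the list, at 6.99 FPKM with Prune2 siRNA and 6.63 FPKM with control siRNA, and was not called. Of 20 tested fibroblast genes 6 fell and 1 rose, 35% beside 10.3% of all tested genes (median log2 fold change -0.21), and 3 fell without Prune2 siRNA replicate 1. Vim (vimentin) fell by 0.53, the crosslinking oxidase Loxl1 by 0.29 and Col1a1 by 0.21 on the log2 scale (adjusted p = 3.72e-09, 5.81e-05 and 0.000682), and Gsn, an actin-severing protein, rose by 0.13 (adjusted p = 0.00886). Fbln2, a matrix protein, was not called at 184 FPKM with Prune2 siRNA and 188 FPKM with control siRNA.

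Markers of other cell types moved in the same libraries in which Pdgfc and Cspg4 fell. Beside the 10.3% of all tested genes that were called, 95% of leukocyte, 43.8% of endothelial and 40.0% of epithelial markers were. Of 20 leukocyte markers 19 fell and 0 rose (median log2 fold change -2.57), and their summed level was 33.7 to 40.5 FPKM in Prune2 siRNA libraries and 152 to 193 FPKM in control libraries. Cd74, Laptm5 and Lyz2 fell by 2.95, 2.74 and 2.53 on the log2 scale (adjusted p = 7.37e-18, 3.72e-14 and 4.93e-14), and the defining markers Ptprc, Csf1r, Tyrobp and Adgre1 were above 0 in every library. Of 16 tested endothelial markers 7 fell and 0 rose (median -0.45), with summed levels of 45.2 to 47.9 FPKM in Prune2 siRNA libraries and 60.2 to 62.8 FPKM in control libraries, and the smallest adjusted p for Cdh5 (-0.50), Emcn (-0.45) and Plvap. The endothelial-defining genes Pecam1 and Kdr fell by 0.51 and 0.58 (adjusted p = 0.000143 and 0.00038), and Tek was not called (0.516). Of 25 tested epithelial markers 8 rose and 2 fell (median 0.08), with summed levels of 4669 to 5080.1 FPKM in Prune2 siRNA libraries and 4852 to 4905 FPKM in control libraries. Among them Mal, Wfdc2 and Slc12a3 rose by 0.51, 0.44 and 1.42, and Lrp2 fell by 0.26 and Krt8 by 0.13. Of the other epithelial-defining genes, Cdh16 rose by 0.28 (adjusted p = 2.47e-05), while Epcam, Cdh1 and Krt18 were not called (0.907, 0.183 and 0.162). The Krt8 call was lost without Prune2 siRNA replicate 2 (adjusted p = 0.204), Prune2 siRNA replicate 3 (0.0777), control replicate 1 (0.0898) or control replicate 2 (0.152), with 0.00194 to 0.23 over 15 alternatives. The Lrp2 call was lost with limma on log2(FPKM + 1) (0.248) and log2(FPKM + 0.1) (0.272), with 0.000704 to 0.272 over 15 alternatives.

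The lists share some genes. Summed pericyte markers stood at 106 to 112 FPKM in Prune2 siRNA libraries and 125 to 128 FPKM in control libraries, smooth muscle markers at 1408 to 1517 FPKM and 1644 to 1723 FPKM, mesangial markers at 29.0 to 31.9 FPKM and 34.1 to 35.3 FPKM, and fibroblast markers at 619 to 622 FPKM and 702 to 717 FPKM. Most of the pericyte sum was Mcam, a gene also of endothelium, at 71.5 FPKM on average with Prune2 siRNA and 80.0 FPKM with control siRNA. The part of the leukocyte, endothelial and epithelial differences in the values of Pdgfc, Cspg4 and the PDGF-related genes was not tested. Pdgfb, which endothelial cells and macrophages are known to make, was at 358 ± 2.72 FPKM with Prune2 siRNA and 362 ± 12.7 FPKM with control siRNA (SD, n = 3 each). Which cells of the culture made Pdgfb was not tested.

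**Figure D5:**
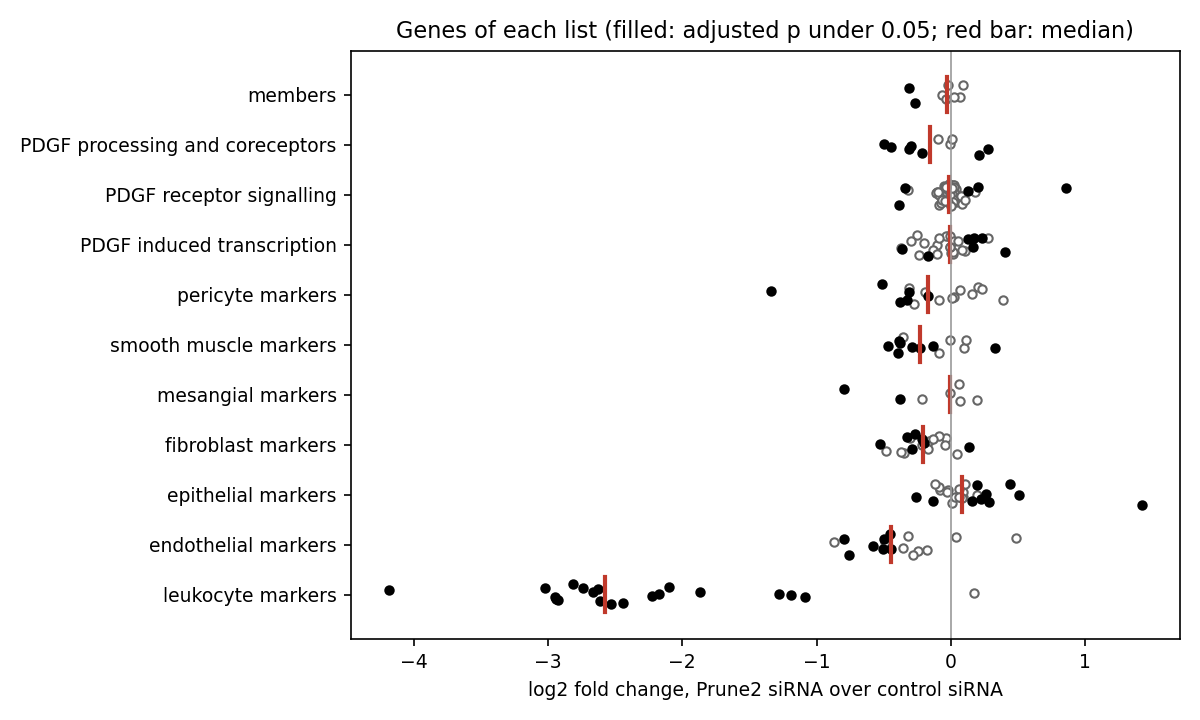
Log2 fold change, Prune2 siRNA over control siRNA, of each tested gene in the lists, with filled points for an adjusted p under 0.05 and a red bar at the list's median. The 8 named members lie between -0.31 and 0.09, the leukocyte markers have the lowest median (-2.57), and the intracellular PDGF receptor genes centre on -0.01.

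Genes with the most similar profile were sought by the root mean square difference in centred log2 CPM over the 6 libraries, among 12374 genes with at least 1 CPM on average and no library at 0. Nearest to Pdgfc were Tmem263 (difference 0.022) and Eya2 (0.023), and nearest to Cspg4 were Ttc28 (0.035) and Postn (0.036). Pdgfa was nearest to Nus1 and Usp8, Pdgfb to Ddit4 and Ankrd27, Pdgfd to Smtn and Bloc1s2, and Cspg4b to Kcnk5 and Adcy6, all within 0.024. The root mean square of Pdgfa, Pdgfb and Pdgfd about their own means was itself only 0.036, 0.032 and 0.052. Profiles this flat lie close to other flat genes, so small distances there show no particular likeness. For the low genes the distances were larger, with Pdgfra nearest to Zfp566 (0.050), Pdgfrb to Pemt (0.041) and Rgs5 to Kifc5b (0.15).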

How the data were processed

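RNA-seq values of 6 libraries were taken from the table the authors deposited, which per the file headers gives counts and FPKM of every gene in each library, with the authors' mean FPKM of each group, log2 fold change, p-value and adjusted p-value. The submitters' processing notes name GRCm38 and mm10. The sources used here do not give the aligner, the counting tool, the annotation or strand handling. Identifiers were matched to GENCODE M21 (22219 of 22274), since the deposited symbols are not unique. Deposited counts were tested with edgeR 4.0.16 (TMM scaling, filterByExpr, glmQLFit, glmQLFTest) over 13248 genes in R 4.3.3, and the procedure was tested on simulated data. The SE is the log2 fold change divided by the square root of F, and intervals use the moderated degrees of freedom. CPM are counts on TMM-scaled library sizes, and FPKM are as deposited. Pairs of replicate libraries gave a chi-square of 2.57 to 3.92 per degree of freedom, above sampling noise. Alternatives were DESeq2 1.42.0, limma 3.58.1 (voom, and log2(FPKM + 1) or log2(FPKM + 0.1) with a mean FPKM of at least 0.1), other scalings and filters, a replicate block, and each library left out. Named genes are the members, Prune2, all genes of the PDGF processing list and, in each other list, up to 3 called genes per direction by adjusted p and the 2 with the highest FPKM. A gene of the receptor signalling list that this rule names is counted but not reported here. Defining cell type markers and genes that resolve small counts are named too. Members and lists were chosen with earlier results of these data known. Of 241 listed symbols, 4 older names were not matched, and their current names are in the lists. Replicate numbers were not taken as pairs, because the labels do not state pairs. Same-numbered libraries of the groups gave correlations of their deviations of 0.0848, -0.0698 and -0.0327, too weak to decide the question.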

Additional observations from a re-analysis of the deposited data

How the results depend on the processing

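Pdgfc and Cspg4 kept their direction and their call in all 15 alternatives run, with log2 fold changes of -0.30 to -0.23 for Pdgfc and -0.35 to -0.27 for Cspg4 when 1 library was left out. The count of called members was 2, or 3 without the filter on low counts, with the replicate block, without Prune2 siRNA replicate 1 and without control replicate 3, where Cspg4b passed. Its log2 fold change was 0.15 without the filter (adjusted p = 0.00664) and 0.15 with the replicate block (0.0106), and 0.10 to 0.20 with 1 library left out. The order of levels was the same for all 9 rows when counts were divided by exon length. Over all genes 1364 were called, 752 by limma on log2(FPKM + 1) and 756 on log2(FPKM + 0.1), and 997 to 1249 with 1 library left out. With the replicate block, which treats same-numbered libraries as pairs, 1490 genes were called. The labels do not state such pairs. Prune2 siRNA replicates 2 and 3 correlated best with control replicates 3 and 2 (0.119 and 0.0638). Prune2 siRNA replicate 1 correlated best with control replicate 1 (0.0848). Correlations this weak cannot decide whether the numbers pair the libraries. The ratio of summed leukocyte markers, Prune2 siRNA over control siRNA, was 0.209 in FPKM and 0.24 in CPM.

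Members near 0 changed sign when 1 library was left out, with no call: Pdgfb from -0.049 to 0.00013, Pdgfra from -0.19 to 0.062, Pdgfrb from -0.069 to 0.16 and Rgs5 from -0.21 to 0.43. Other genes not called did so too. Pcsk5 was at 0.0016 and 0.0018 by limma on FPKM and -0.048 to 0.026 with 1 library left out, St14 at -0.0018 with upper-quartile scaling and -0.018 to 0.020, Akt1 at -0.0032 with upper-quartile scaling and -0.022 to 0.029, Ccn1 at 0.0044 on both FPKM scales and -0.028 to 0.012, and Serpine2 at 0.059 and 0.066 by limma on FPKM and -0.063 to 0.098. For the named genes outside the members together with Cspg4, the alternatives gave 780 values. Of these, 710 kept direction and call, 44 lost a call, 7 gained a call and 19 changed sign. The 710 include all 15 values of Cspg4. Where a call was lost the cause was not tested. Rgs5, Pdgfra and several pericyte genes have few counts, and their intervals also carry spread between replicates above counting noise.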

Other observations

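The deposited symbols carry more cases like the second Cspg4 row. Among rows matched to GENCODE M21, 5738 have a deposited symbol that differs from the annotated one, 4440 of them by more than letter case, and 915 symbols are used by several rows, 3654 rows in all. Lengths implied by deposited count and FPKM were close between groups for Pdgfc (3216 bases with Prune2 siRNA and 3224 with control siRNA) and Cspg4 (8122 and 8124), and less so for Pdgfra (6357 and 5872).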
